A study of Mus musculus with 16 samples.

Results

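The 10 genes described here encode the apolipoproteins that coat plasma lipoproteins: Apoa1, Apoa2, Apoa4, Apoa5, Apob, Apoc1, Apoc2, Apoc3, Apoe and Apom. They were taken by symbol from the 55401 genes of the count table, where each symbol stood on 1 row, and all 10 were among the 17292 genes that passed the filter on low counts. Apolipoproteins give lipoprotein particles their structure, act as ligands for receptors that clear the particles, and switch plasma lipases on or off. The hepatocyte makes most of them: it builds very low density lipoprotein around apolipoprotein B, secretes apolipoproteins A-I and A-II as the frame of high density lipoprotein, and supplies the exchangeable C and E proteins that move between particles. In rodents and humans these genes are under hepatocyte transcription factors and nuclear receptors that respond to sterols, fatty acids and fasting.

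RNA was sequenced from whole liver of wild-type mice in 16 libraries, 2 in each of 8 groups. Control mice were untreated. TAA mice drank thioacetamide, a compound that hepatocytes convert into a toxic metabolite and that is used to produce liver fibrosis, at 300 mg/L for 8 weeks. The other 6 groups had the same 8 weeks of thioacetamide and then recovered for 1, 2 or 4 weeks, either without supplement or with choline chloride, a precursor of phosphatidylcholine, at 3.5 g/L in drinking water. The labels give no strain, sex or age, and no group had choline without prior thioacetamide. Nothing in the labels ties the libraries of a group to different animals, so the p-values below measure the spread between these libraries, part of which may be technical.

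Library totals ran from 23.1 to 33.6 Mcounts (mega-counts), and the 10 genes took 2.51% to 3.94% of them. Levels are CPM, counts relative to library sizes scaled by TMM, a method that sets the bulk of genes equal between libraries. A pair of libraries stood apart: the nuclear RNA Malat1 had 146 CPM in the first control library and 1020 CPM in the first TAA library, while all 14 others had 5230 to 6800 CPM. Control replicate 1 exceeded control replicate 2 by a ratio of 1.35 to 2.73 for 9 of the 10 genes, and was above each of the other 15 libraries for 7 of them: Apoa1, Apoa2, Apoa5, Apoc1, Apoc3, Apoe and Apom. For Apob the ratio was 0.87, and Apob has the longest coding transcript of the 10, 13934 bases against 518 to 2515 in GENCODE M21. The number of the 10 genes called against control or TAA is therefore given with all libraries and again without replicate 1 of these groups. The second form rests on 1 control and 1 TAA library, which are assumed to vary as the recovery groups do. The part of what lowered Malat1 in the apolipoprotein levels was not tested.

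The genes lie at 5 places in GRCm38. On chromosome 9, Apoa1 (46228580 to 46230466, + strand), Apoc3 (46233198 to 46235636, − strand), Apoa4 (46240696 to 46243459, + strand) and Apoa5 (46268633 to 46271919, + strand) fill a cluster of 43.3 kb. On chromosome 7, Apoc2 (19671579 to 19677941), Apoc1 (19689481 to 19692660) and Apoe (19696109 to 19699188) fill a cluster of 27.6 kb, all on the − strand. Apoa2 is on chromosome 1 (171225054 to 171226379, + strand), Apob on chromosome 12 (7977648 to 8016835, + strand) and Apom on chromosome 17 (35128997 to 35132050, − strand). Each is annotated as protein coding. Apoc2 overlaps the same-strand gene Gm44805, which held 110 to 618 expected counts per library, so a part of its reads could have been divided between the annotations. The antisense or unprocessed loci within Apoa4 and Apoa5 (Gm10680, Gm47528 and Gm47544) held at most 6 counts in a library.

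Promoter sequences from RefSeq (GRCm38.p6) matched 8 of the 10 genes, all but Apoc1 and Apoc3. Those of Apoa2, Apoa5, Apoe and Apoc2 are shown because their start coincides with the start of the deposited gene, and because the first 3 of these genes fell with thioacetamide while Apoc2 did not pass the test. Each is the 150 bases before the start, 5′ to 3′ on the strand of the gene, at chr1:171224904-171225053 (+), chr9:46268483-46268632 (+), chr7:19699189-19699338 (−) and chr7:19677942-19678091 (−). Capitals mark matches, on either strand, to 5 short motifs: the nuclear receptor half-sites AGGTCA and GGGTCA, the core AAAGTCC of the site of HNF4, the TATA box TATAAA and the E-box CACGTG.
Apoa2: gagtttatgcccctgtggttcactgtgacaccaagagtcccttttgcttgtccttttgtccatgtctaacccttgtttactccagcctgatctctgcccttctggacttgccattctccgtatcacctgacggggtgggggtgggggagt
Apoa5: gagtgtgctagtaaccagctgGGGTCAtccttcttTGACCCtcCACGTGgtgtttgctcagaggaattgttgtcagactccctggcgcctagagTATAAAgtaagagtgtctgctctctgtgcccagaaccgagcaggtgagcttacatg
Apoe: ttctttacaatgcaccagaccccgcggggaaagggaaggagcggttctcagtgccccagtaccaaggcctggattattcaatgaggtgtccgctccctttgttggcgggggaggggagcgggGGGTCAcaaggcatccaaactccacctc
Apoc2: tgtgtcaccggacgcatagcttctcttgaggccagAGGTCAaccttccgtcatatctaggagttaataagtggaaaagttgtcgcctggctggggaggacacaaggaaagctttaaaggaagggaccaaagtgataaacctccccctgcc
In the 250 bases before the start, GGGTCA was found in 3 of the 8 matched genes and in 11.6% of 32851 RefSeq promoters. AGGTCA was in 1 of 8 against 14% of promoters, TATAAA in 3 against 12.4%, CACGTG in 1 against 6.02%, and AAAGTCC in 0 against 3.58%. Apoa5 held GGGTCA on each strand, 129 to 124 and 115 to 110 bases before its start, followed by CACGTG at 107 to 102 and TATAAA at 56 to 51. In Apoe, GGGTCA lay 28 to 23 bases before the start, and in Apoc2, AGGTCA lay at 115 to 110. A match describes these letters in these windows and is not a measured binding site.

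On the TPM scale, which allows for transcript length, Apoe, the ligand that takes remnants to the LDL receptor family, and Apoa2, a structural protein of high density lipoprotein, held places 1 and 2 of the 10 genes in every library. Their median shares of the summed TPM of the 10 genes were 32% and 28%. Apoc1, a small inhibitor of lipolysis and remnant uptake, was in place 3 throughout with 16.1%. Apoa1, the main frame of high density lipoprotein and the activator of LCAT, followed with 10.7%, and Apoc3, an inhibitor of lipoprotein lipase, with 6.97%; these genes exchanged places 4 and 5 between libraries. Apob, the scaffold of very low density lipoprotein, was in place 6 everywhere with 4.09% of TPM, although its long transcript gave it the highest CPM of the 10 genes in the 14 libraries other than control, and 7223 to 17589 CPM over all 16. Apoa5, a secreted enhancer of triglyceride clearance, and Apoc2, the obligate cofactor of lipoprotein lipase, shared places 7 and 8. Apom, the carrier of sphingosine-1-phosphate on high density lipoprotein, and Apoa4, an apolipoprotein of gut and, in mice, liver, shared places 9 and 10. Apoa4 had the widest spread of the 10, from 0.104% to 1.14% of the summed TPM and 6.59-fold between its lowest and highest CPM.

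**Figure D1:**
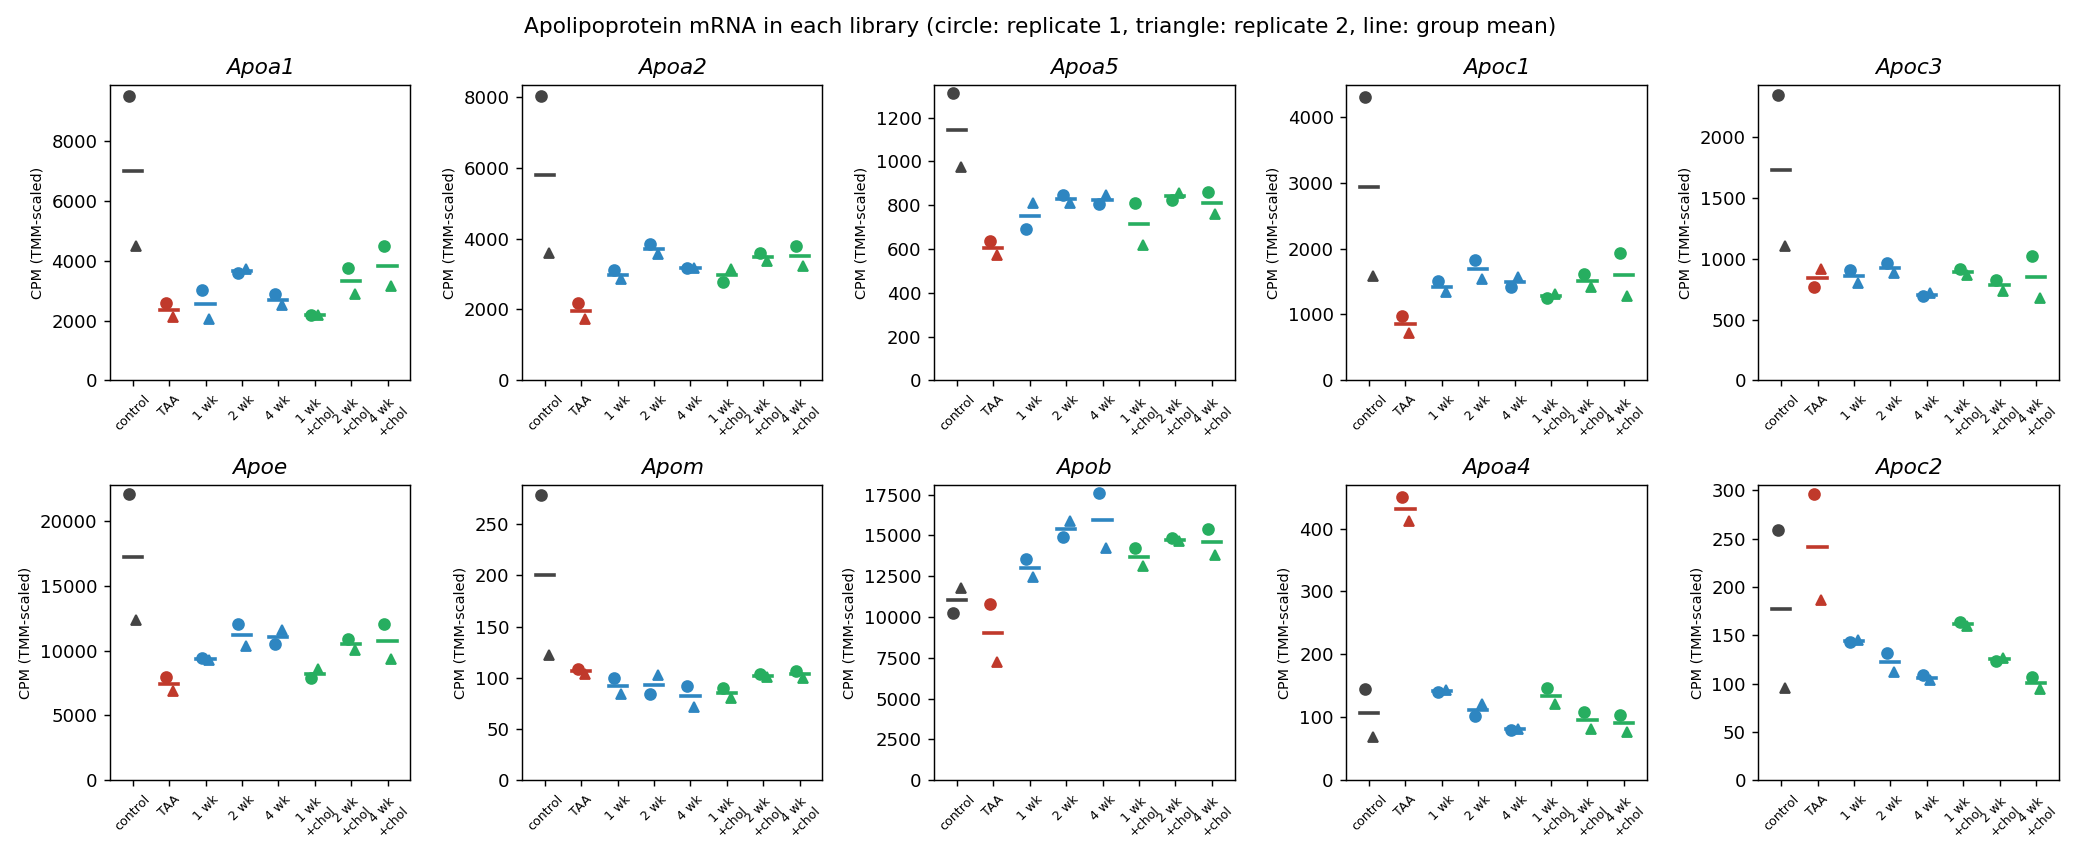
Level of each apolipoprotein gene in CPM (TMM-scaled, linear axes from 0) in every library of the 8 groups, circles for replicate 1, triangles for replicate 2 and lines for group means. Control replicate 1 is the highest library for 7 genes, and both TAA libraries are the highest for Apoa4 at 413 and 451 CPM. For most genes, choline libraries (green) overlap those without choline (blue) of the same week.

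Thioacetamide was compared with control to ask what 8 weeks of injury did to the liver. At its end 7 apolipoprotein mRNAs were lower than in control, Apoa4 was 4.05-fold higher, and Apob and Apoc2 did not pass the test. The 8 of 10 genes called stand against 21.0% of all genes called in this comparison, and the median log2 change was -0.98 over the 10 genes and 0.03 over all genes tested. The threshold for a call was an adjusted p of 0.05 in edgeR's quasi-likelihood test. In the chromosome 9 cluster Apoa4 rose between Apoc3 and Apoa5, which fell. In the chromosome 7 cluster Apoc1 and Apoe fell, and Apoc2 was at 0.45 ± 0.35, with a 95% interval from -0.32 to 1.21.

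The structural genes of high density lipoprotein came down together. Apoa1 stood at 9504 and 4482 CPM in control and at 2601 and 2121 CPM in TAA. Apoa2 stood at 8015 and 3585 CPM in control and at 2175 and 1732 CPM in TAA. In CPM neither gene overlapped between the groups, and for Apoa2 both TAA libraries were also below each of the other 14. The log2 changes were -1.57 ± 0.33 (SE) for Apoa1 (adjusted p = 0.00715, edgeR) and -1.57 ± 0.30 for Apoa2 (adjusted p = 0.00419). Apom, at 278 and 123 CPM in control, was at 109 and 104 CPM in TAA, a change of -0.91 ± 0.29 (adjusted p = 0.0466). For Apom, control replicate 2 lay close above the TAA libraries, the difference without control replicate 1 was -0.21, and the call held in 1 of the 16 fits that each left out a library.

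Apoa4 moved the other way. It stood at 145 and 68.4 CPM in control and at 451 and 413 CPM in TAA, above every one of the other 14 libraries, with a log2 change of 2.02 ± 0.30 (adjusted p = 0.00113, edgeR). Of 9427 genes with a mean of at least 5 CPM, 897 likewise had both TAA libraries above all others and 1021 had both below. Because enterocytes also make apolipoprotein A-IV, gut markers were read beside it: Sis, Alpi and Cdx2 were at 0 in all 16 libraries. Summed over 7 gut markers, most of it Fabp2, the level was 24.5 and 42.9 CPM in control and 12.1 and 19.5 CPM in TAA, and 3 to 5 of the 7 were at 0 in these libraries. Only Fabp2 and Vil1 passed the filter on low counts, and both were called, in opposite directions. Fabp2 was lower in TAA (-1.20 ± 0.27, adjusted p = 0.00921). Vil1, the villin of intestinal and bile duct epithelium, was higher (2.66 ± 0.66, adjusted p = 0.0154), at 0.274 and 0.0685 CPM in control and 1.49 and 0.600 CPM in TAA. Lct, intestinal lactase, was at 0 and 0.0342 CPM in control and 0.103 and 0.253 CPM in TAA. Their part in the level of Apoa4 was not tested.

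Of the regulators of lipolysis, 3 of 4 fell. Apoc1 fell from 4303 and 1577 CPM in control to 977 and 725 CPM in TAA, by 1.79 ± 0.37 on the log2 scale (adjusted p = 0.00694, edgeR), and both TAA libraries were again below the other 14. Apoc3 went from 2344 and 1106 CPM to 769 and 916 CPM, a change of -1.03 ± 0.30 (adjusted p = 0.0296). Apoa5 went from 1312 and 976 CPM to 638 and 572 CPM, a change of -0.92 ± 0.19 (adjusted p = 0.00665). Apoc2, the activator, was at 259 and 95.1 CPM in control and 296 and 187 CPM in TAA; the groups overlapped and the change of 0.45 ± 0.35 did not pass (adjusted p = 0.4).

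Apoe, at 22061 and 12388 CPM in control and 7995 and 6901 CPM in TAA, fell by 1.21 ± 0.25 on the log2 scale (adjusted p = 0.00686, edgeR), with no overlap of the groups in CPM. The TMM factors behind these CPM were 0.674 and 0.911 in control and 1.16 and 1.20 in TAA. In TPM, Apoe was at 8045 and 7896 in control and 8521 and 6019 in TAA, and the groups overlapped. Apoa1, Apoa2, Apoa5, Apob, Apoc1, Apoc3 and Apom also overlapped between these groups in TPM, while Apoa4 and Apoc2 did not. Apoc2, which overlapped in CPM, was at 191 and 113 TPM in control and 637 and 300 TPM in TAA. Apob was at 10253 and 11780 CPM in control and 10802 and 7223 CPM in TAA. Its groups overlapped, and the change of -0.29 ± 0.21 did not pass (adjusted p = 0.363).

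Without replicate 1 of control and of TAA, 8 genes were again called, against 15.1% of all genes, but not the same 8. Apoa4 (log2 change 2.59), Apoa1 (-1.08), Apoa2 (-1.05), Apoa5 (-0.77), Apoc1 (-1.13) and Apoe (-0.85) kept their calls and directions. Apoc3 (-0.28, adjusted p = 0.465) and Apom (-0.24, adjusted p = 0.449) lost theirs. Apoc2 was then called higher (0.97 ± 0.14, adjusted p = 0.0013) and Apob lower (-0.71 ± 0.21, adjusted p = 0.0403). With control replicate 1 alone left out, 7 genes were called and Apob was not among them (adjusted p = 0.276), and with TAA replicate 2 alone left out, 5 were. With control and TAA fitted alone, in 4 libraries, edgeR called 0 of the 10 genes, beside 0.0986% of all genes. In that fit 6 of the 10 were at an unadjusted p under 0.05, and the smallest adjusted p was 0.165, that of Apoa4 (2.04). Scaling by total counts moved the median of all genes to 0.59; Apob was then at 0.26, uncalled and of the opposite sign, Apoc2 was called at 1.12, and Apoa5, Apoc3 and Apom lost their calls.

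Of 9 hepatocyte markers 2 were called, both lower, a share close to the 21.0% of all genes called, and their median log2 change was -0.58. Their summed level was 108000 and 84720 CPM in control and 79650 and 67300 CPM in TAA. Alb, serum albumin, the most abundant of them, was at 57850 and 51920 CPM in control and 56100 and 46640 CPM in TAA, with overlapping groups (-0.10 ± 0.18, adjusted p = 0.742, edgeR). Of 7 cholangiocyte markers 5 were higher, of 8 stellate cell markers 4 were higher, of 10 macrophage markers 3 were higher, and of 6 endothelial markers 3 were lower. In bulk tissue fewer hepatocytes and less of an mRNA per hepatocyte cannot be told apart, and the part of these shifts in the apolipoprotein changes was not tested.

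**Figure D2:**
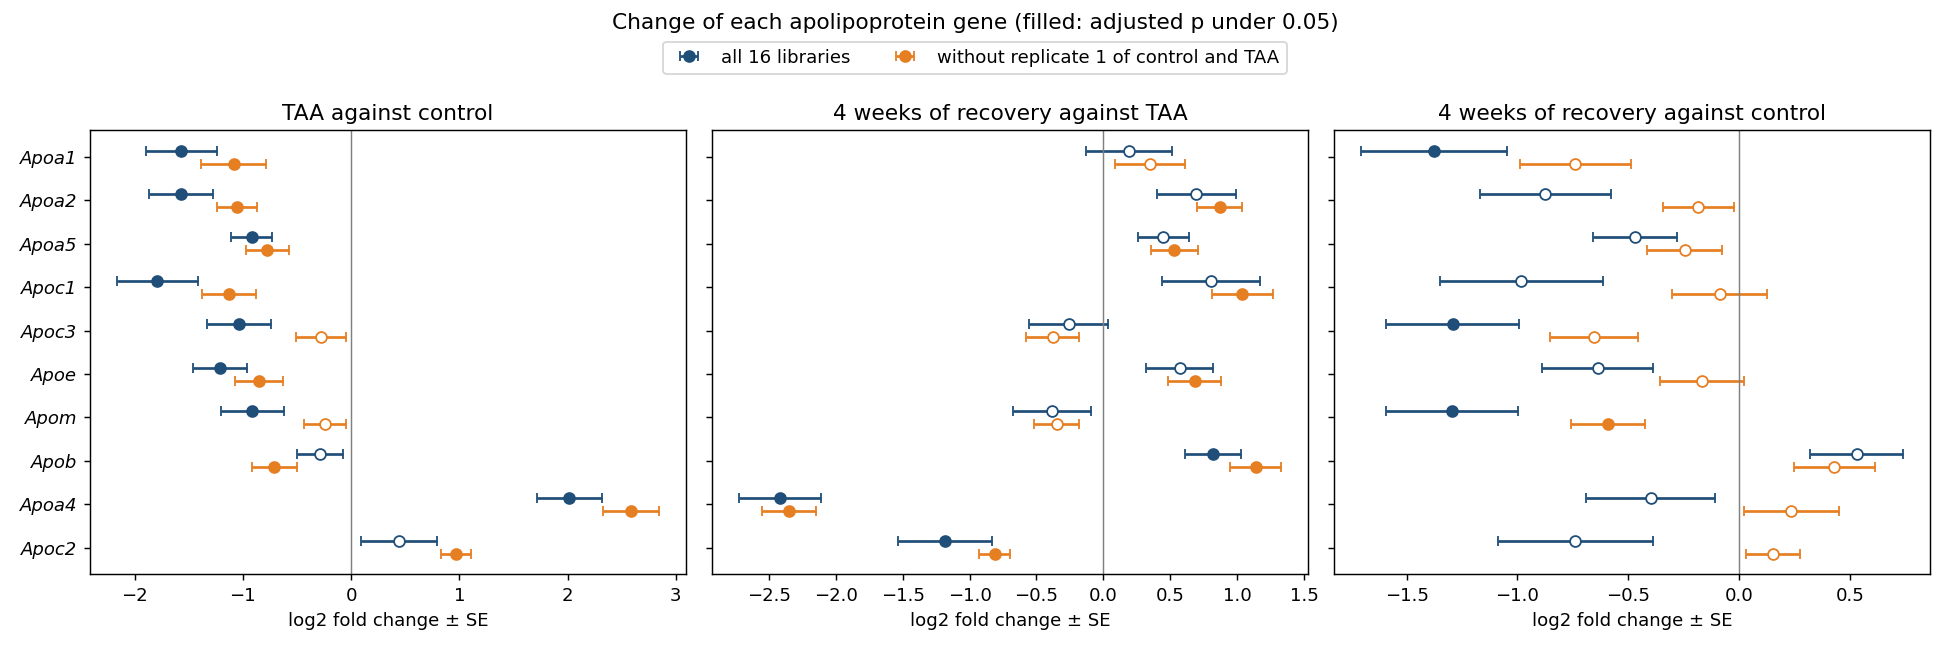
Log2 fold change ± SE of each gene from the fit of all 16 libraries (blue) and without replicate 1 of control and TAA (orange), for TAA against control, 4 weeks of recovery against TAA and 4 weeks of recovery against control, with filled points at an adjusted p under 0.05. Apoa4 is at 2.02 and 2.59 in the first panel and at -2.42 and -2.35 in the second, while the falls of Apoc3 and Apom against control shrink in the second form.

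**Figure D3:**
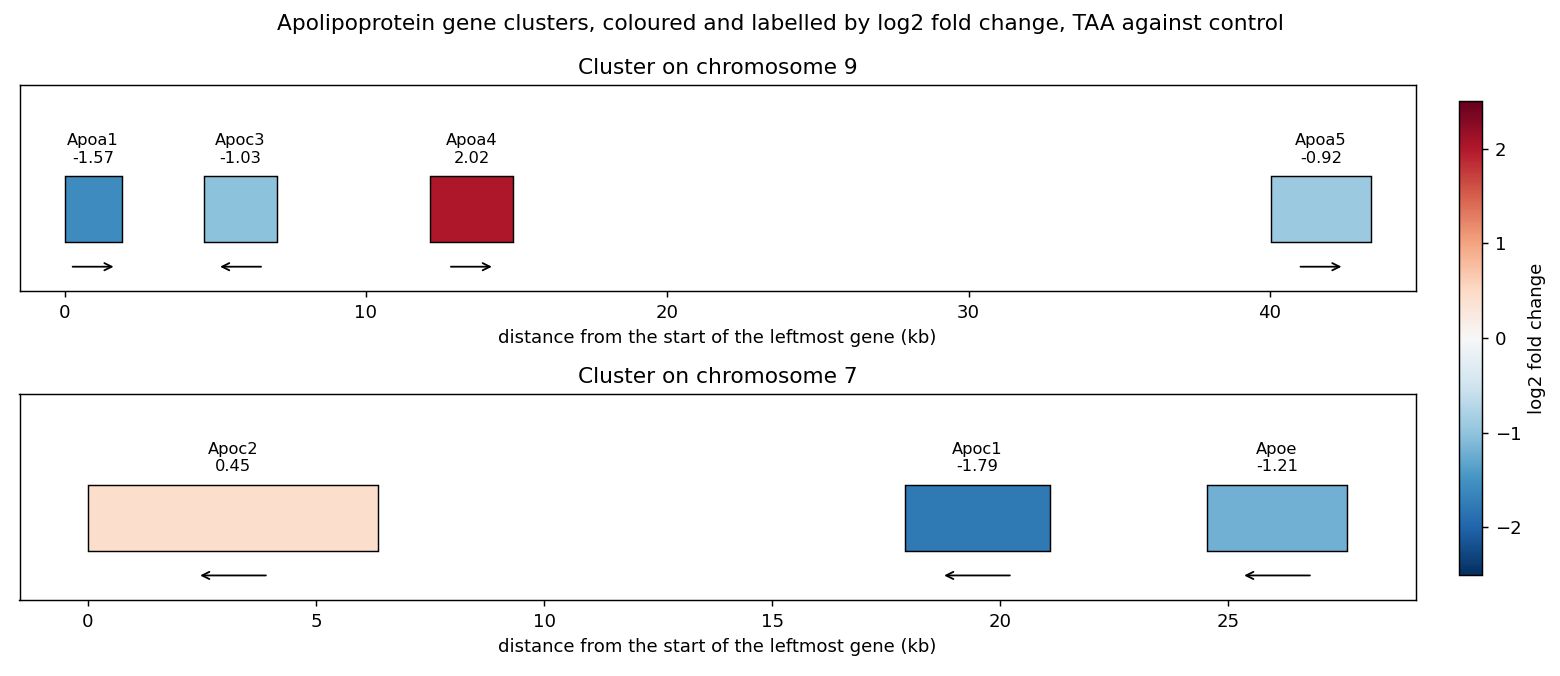
Position of the genes within the chromosome 9 and chromosome 7 clusters, as distance in kb from the start of the leftmost gene, with colour and number giving the log2 fold change of TAA against control and arrows giving the strand. Apoa4 (2.02) stands between Apoc3 (-1.03) and Apoa5 (-0.92), and Apoc2 (0.45) shares its cluster with Apoc1 (-1.79) and Apoe (-1.21).

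Ratios between members inside a library do not depend on how libraries are scaled. The log2 ratio of Apoa4 to Apoa1 counts was -6.04 and -6.03 in the control libraries, -2.53 and -2.36 in TAA, and -5.43 to -3.85 in the 12 recovery libraries. The replicates of control, which differed by a ratio of 2.12 for each gene alone, thus gave nearly the same ratio. Apoc2 to Apoc1 was -4.05 in each control library, -1.72 and -1.96 in TAA, and -4.18 to -2.93 in recovery. For both of these ratios the TAA libraries were above all others, the control libraries lay at or near the bottom, and the recovery libraries of week 1 were the nearest to TAA. Apoc2 to Apoe was at -6.41 and -7.02 in control, -4.76 and -5.21 in TAA and -6.82 to -5.58 in recovery. There too the TAA libraries were above all others, but control replicate 1 lay among the recovery libraries. Apob to Apoa1 had another order: 0.11 and 1.39 in control, 2.05 and 1.77 in TAA, and 1.77 to 2.69 in recovery, so that no recovery library was within the range of control.

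**Figure D4:**
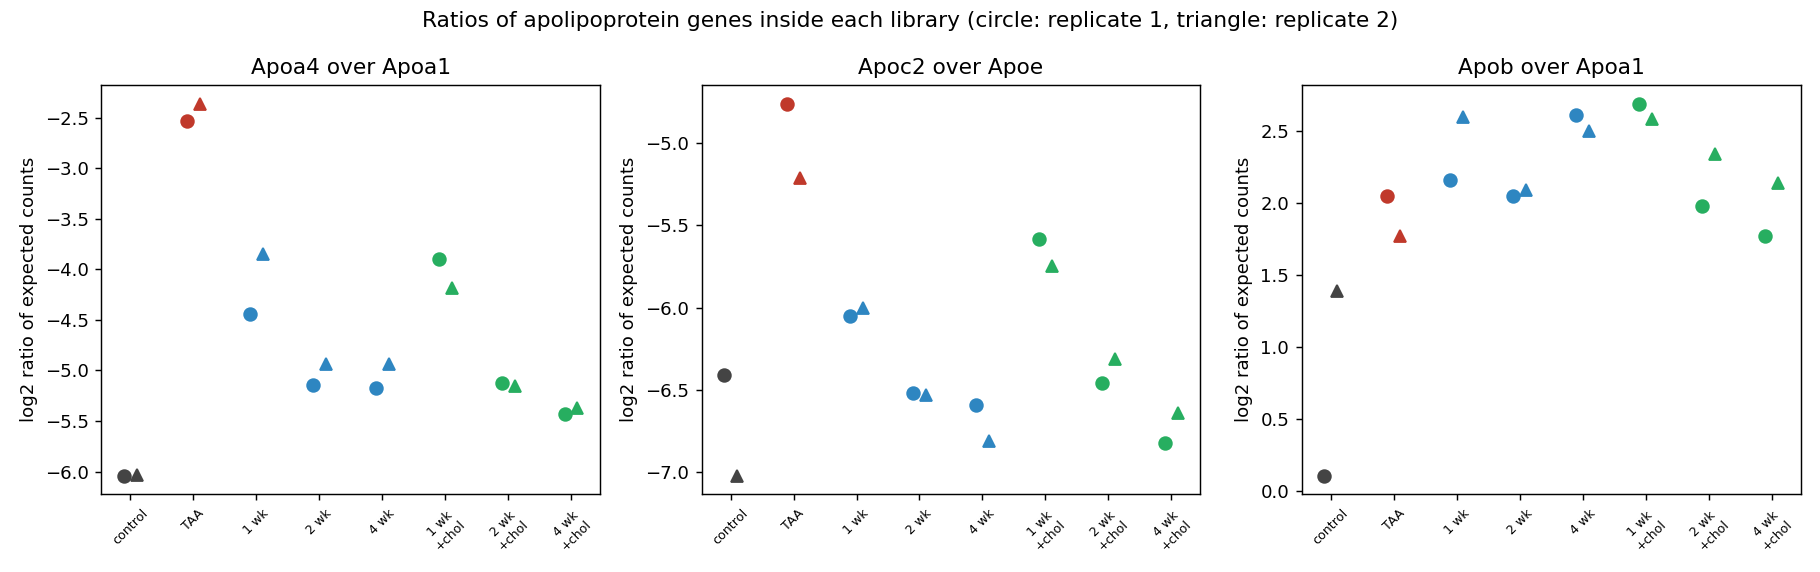
Log2 ratio of expected counts of 2 genes within each library, by group, circles for replicate 1 and triangles for replicate 2. Apoa4 over Apoa1 and Apoc2 over Apoe peak in the TAA libraries, and Apob over Apoa1 stays at 1.77 or above in all recovery libraries, with control at 0.11 and 1.39.

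Recovery without choline was compared with TAA at each time. These 3 comparisons share the TAA libraries. Apoa4 fell at every time: from 451 and 413 CPM in TAA to 140 and 143 CPM after 1 week, 102 and 122 CPM after 2 weeks and 80.0 and 81.7 CPM after 4 weeks. All recovery libraries were below both TAA libraries, and the log2 changes were -1.61 ± 0.30 (adjusted p = 0.0161, edgeR), -1.95 ± 0.30 (adjusted p = 0.00286) and -2.42 ± 0.31 (adjusted p = 0.000715). The value at 1 week was not called when TAA replicate 1 (adjusted p = 0.0891) or either library of that week (adjusted p = 0.195 and 0.0845) was left out.

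Apob rose above its TAA level and reached the highest group means of the series. From 10802 and 7223 CPM in TAA it went to 13525 and 12470 CPM at 1 week, 14931 and 15863 CPM at 2 weeks and 17589 and 14238 CPM at 4 weeks. No recovery library overlapped TAA, and the changes were 0.53 ± 0.21 at 1 week (adjusted p = 0.196, edgeR), 0.77 ± 0.21 at 2 weeks (adjusted p = 0.0383) and 0.82 ± 0.21 at 4 weeks (adjusted p = 0.0239). Without TAA replicate 2, the lower of the pair, the values were 0.51 at 2 weeks and 0.54 at 4 weeks and neither was called. The call at 2 weeks held in 3 of the 16 fits that each left out a library. That at 4 weeks held in 13, and was lost without either library of its own group (adjusted p = 0.167 and 0.0601). Apoc2 was at 143 and 145 CPM, 131 and 112 CPM, and 109 and 103 CPM at the successive times, and fell by 1.18 ± 0.35 at 4 weeks (adjusted p = 0.0435). This call was lost without TAA replicate 1 (-0.80, adjusted p = 0.271) and held in 3 of the 16 fits that each left out a library.

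Of the 7 genes that thioacetamide lowered, 0 passed the test in recovery against TAA with all libraries. Apoa2 was at 3105 and 2850 CPM after 1 week, 3834 and 3552 CPM after 2 weeks and 3157 and 3174 CPM after 4 weeks, all above both TAA libraries, with log2 differences of 0.61, 0.92 and 0.70 (adjusted p = 0.284, 0.0666 and 0.132, edgeR). Apoc1 likewise had all 6 libraries, at 1342 to 1833 CPM, above the 977 and 725 CPM of TAA, with 0.74, 0.99 and 0.81 (adjusted p = 0.298, 0.107 and 0.16). Apoe had differences of 0.33, 0.59 and 0.57, and Apoa5 of 0.31, 0.45 and 0.45. Apoc3 and Apom had differences of -0.38 to 0.13 across the 3 times. Apoa1 was at 3031 and 2061 CPM, 3602 and 3736 CPM, and 2878 and 2512 CPM, above TAA in both libraries at 2 weeks only.

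Altogether 1, 2 and 3 of the 10 genes were called at 1, 2 and 4 weeks against TAA, beside 3.75%, 11.0% and 14.9% of all genes. Without replicate 1 of control and TAA the counts were 4, 6 and 7, beside 11.1%, 20.1% and 25.5%. At 4 weeks Apoa2 (0.87), Apoa5 (0.53), Apob (1.14), Apoc1 (1.04) and Apoe (0.68) were called higher and Apoa4 (-2.35) and Apoc2 (-0.81) lower. Leaving out either control library alone also gave 7 at 4 weeks.

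Each recovery time was also compared with control, to ask how far the genes were from untreated liver. These comparisons share the control libraries. The median log2 change of the 10 genes was -0.92, -0.64 and -0.81 at 1, 2 and 4 weeks. Without control replicate 1 it was -0.33, -0.06 and -0.18. With all libraries, Apoa1 was lower at 1 week (-1.46 ± 0.33, adjusted p = 0.0438, edgeR, a call that held in 5 of the 16 fits that each left out a library), 1 gene of 10 beside 4.26% of all genes. At 2 weeks 0 genes were called in edgeR, beside 0.399% of all genes, with 8 at an unadjusted p under 0.05 and 3 called by DESeq2. At 4 weeks Apoa1 (-1.38 ± 0.33, adjusted p = 0.0205), Apoc3 (-1.29 ± 0.30, adjusted p = 0.0186) and Apom (-1.29 ± 0.30, adjusted p = 0.0181) were lower, 3 genes of 10 beside 19.5%.

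None of these 4 calls held without control replicate 1, where Apoa1 stood at -0.83 at 1 week (adjusted p = 0.197, edgeR) and -0.74 at 4 weeks (adjusted p = 0.121), Apoc3 at -0.66 (adjusted p = 0.0903) and Apom at -0.59 (adjusted p = 0.0668). Without control replicate 2 instead, 8, 8 and 9 genes were called at 1, 2 and 4 weeks. Leaving out either library of the 4-week group also gave 0 calls. Set against control replicate 2 alone, the recovery libraries without choline were lower throughout for Apoa1 (4482 CPM in that control library), Apoa5 (976 CPM), Apoc3 (1106 CPM), Apoe (12388 CPM) and Apom (123 CPM). They were higher throughout for Apob (11780 CPM), Apoa4 (68.4 CPM) and Apoc2 (95.1 CPM). Apoa2 (3585 CPM) and Apoc1 (1577 CPM) had recovery libraries on both sides. Without replicate 1 of control and TAA, Apoa4 (1.05 ± 0.22, adjusted p = 0.0468) and Apoc2 (0.60 ± 0.12, adjusted p = 0.0407) were called higher at 1 week, beside 1.58% of all genes. At 2 weeks 0 were called in edgeR, beside 0.923%. Apom was the single call at 4 weeks (-0.59 ± 0.17), beside 11.8%.

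**Figure D5:**
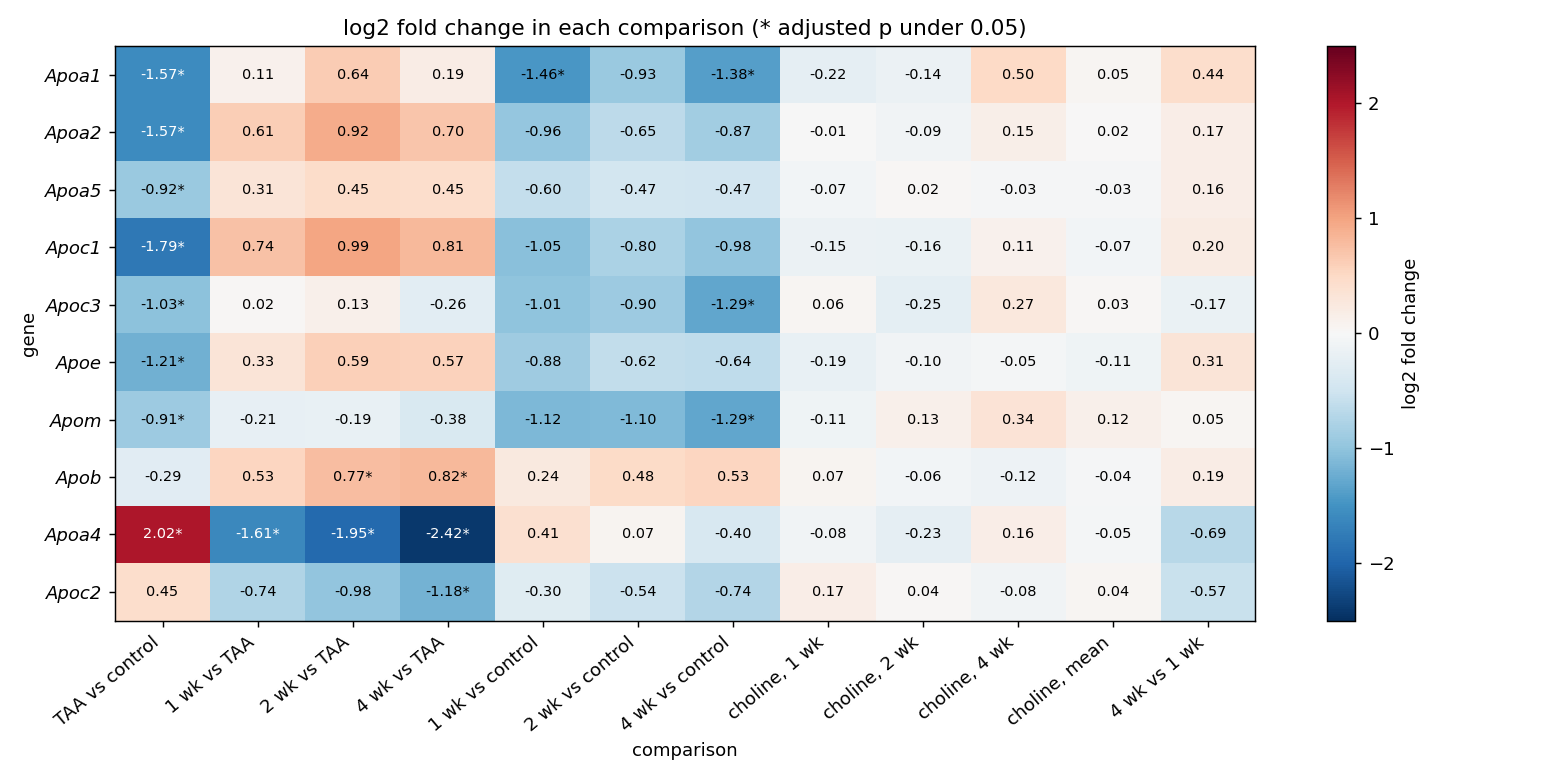
Log2 fold change of each gene (rows) in 12 comparisons (columns) from the fit of all 16 libraries, blue for lower and red for higher, with a star at an adjusted p under 0.05. The first 7 columns hold all the stars, and the 4 choline columns run from -0.25 to 0.50 with none.

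Choline was compared with no choline at the same week, the question the series title poses for cholesterol genes. No apolipoprotein gene was called at 1, 2 or 4 weeks, beside 0%, 0% and 0.0520% of all genes in edgeR, nor for the mean over the 3 weeks, beside 0.0173%. The interaction of choline with week called 0 as well, beside 0%. In each of these comparisons 0 of the 10 genes reached an unadjusted p under 0.05, and DESeq2 called 0. For the mean over the 3 weeks, the differences of the 10 genes ran from -0.11 for Apoe to 0.12 for Apom on the log2 scale. The 95% intervals all held 0. The narrowest was that of Apoa5 (-0.265 to 0.213) and the widest that of Apoc1 (-0.53 to 0.39). A difference inside a gene's own interval could not be told from 0 in this fit. Its spread was estimated from all 16 libraries, control and TAA included, and not only from the 6 against 6 compared. With the compared groups fitted alone, edgeR called 0 of the 10 genes for this mean (smallest adjusted p = 0.704).

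The largest difference belonged to Apoa1 at 4 weeks: 4498 and 3146 CPM with choline and 2878 and 2512 CPM without. Both choline libraries were the higher ones, but the log2 difference of 0.50 had a 95% interval from -0.20 to 1.21. At 1 week Apoa1 stood at 2195 and 2189 CPM with choline, within the 3031 and 2061 CPM without it. At 2 weeks the values were 3763 and 2901 CPM against 3602 and 3736 CPM. Apob was at 14198 and 13124 CPM, 14832 and 14661 CPM, and 15393 and 13827 CPM in the choline groups at 1, 2 and 4 weeks, with differences of 0.07, -0.06 and -0.12. Apoe was at 7864 and 8553 CPM, 10876 and 10089 CPM, and 12050 and 9376 CPM, with differences of -0.19, -0.10 and -0.05.

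Apoa4 with choline was at 147 and 120 CPM, 108 and 81.6 CPM, and 104 and 76.1 CPM at 1, 2 and 4 weeks, overlapping the libraries without choline at 1, 2 and 4 weeks. Apoc2 was at 164 and 159 CPM, 123 and 127 CPM, and 106 and 94.0 CPM; at 1 week both were above the 143 and 145 CPM without choline, a difference of 0.17 whose interval ran from -0.59 to 0.93. The remaining genes, Apoa2, Apoa5, Apoc1, Apoc3 and Apom, had differences between -0.25 and 0.34 at the 3 times. Both choline libraries lay below both without choline for Apoe and Apoc1 at 1 week and for Apob and Apoc3 at 2 weeks. They lay above both for Apoa2 and Apom at 4 weeks. None of these differences was called. With Apoc2 at 1 week and Apoa1 at 4 weeks, the groups did not overlap for 3, 2 and 3 of the 10 genes at 1, 2 and 4 weeks. The share over all genes is not given here, and with 2 libraries against 2 such separation is frequent between groups that do not differ.

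Time within recovery was tested as week 4 against week 1, averaged over the groups with and without choline. No apolipoprotein gene was called, beside 3.03% of all genes in edgeR, and 2 reached an unadjusted p under 0.05: Apoa4 (-0.69 ± 0.21, adjusted p = 0.112) and Apoc2 (-0.57 ± 0.25, adjusted p = 0.291). DESeq2 called 1. Weeks 1 and 4 did not overlap for 3 of the 10 genes, and the share over all genes is not given here. Apoa2 was among them, at 2768 to 3148 CPM in week 1 and 3157 to 3796 CPM in week 4. Its difference was 0.17 ± 0.21 (unadjusted p = 0.432, edgeR). The 4 libraries of week 1 held 120 to 147 CPM of Apoa4 and those of week 4 held 76.1 to 104 CPM, with no overlap. For Apoc2 they held 143 to 164 CPM and 94.0 to 109 CPM, again with no overlap. Without replicate 1 of control and TAA, both genes were called (Apoa4 -0.69 ± 0.12, adjusted p = 0.00459; Apoc2 -0.57 ± 0.07, adjusted p = 0.000377), beside 14.5% of all genes, and leaving out either control library alone also gave 2 calls.

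Over all 8 groups the order of group means showed the same split. Control was highest for Apoa1, Apoa2, Apoa5, Apoc1, Apoc3, Apoe and Apom. For Apoa2 and Apoc1 this rested on control replicate 1. Control replicate 2 (3585 and 1577 CPM) was below the mean of the 2-week group without choline (3693 and 1689 CPM). TAA was highest for Apoa4 and Apoc2 and lowest for Apoa2, Apoa5, Apob, Apoc1 and Apoe. For Apob the 6 recovery groups took places 1 to 6, with means of 13000 to 15910 CPM, above control (11016 ± 1080 CPM, SD, n = 2) and TAA (9013 ± 2531 CPM). Most neighbours in these orders overlapped. Gaps between the ranges of neighbouring groups included those that separated TAA (432 ± 26.9 CPM) from the next group for Apoa4, control from the next for Apoa5, Apoc3, Apoe and Apom, and TAA from the group above it for Apoa2 and Apoc1.

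As a description over 16 libraries that share groups and scaling, Apoa2 and Apoc1 were the most alike of the 10 genes (Pearson r of log2(CPM + 1) 0.98, and 0.96 over the 14 libraries without the 2 low in Malat1), followed by Apoc1 and Apoe (0.96 and 0.88). Apoa1 and Apoc3, neighbours on chromosome 9, had 0.79 and 0.40. Apoa4 ran with Apoc2 (0.82 and 0.83) and against Apob (-0.72 and -0.75). Among the 9427 genes compared, the profiles outside the members most like that of Apoa4 were Ccng1, a cyclin G induced by p53 (0.956), and Afp, the fetal serum protein alpha-fetoprotein (0.955). Apoa2 was most like Mtarc1, a mitochondrial amidoxime reductase (0.986), and Gstz1, an enzyme of tyrosine breakdown (0.984). Apoc1 was most like F12, coagulation factor XII (0.985), and Gstz1 (0.978), and Apoa1 most like Retreg3 (0.972) and Bckdha, of branched-chain amino acid breakdown (0.962). Apob was most like Pzp, a secreted protease inhibitor (0.931), and Deptor, an inhibitor of mTOR (0.93). The closest to Apoe were Cyp2d26 (0.975) and Coasy (0.974), to Apoa5 Auh (0.938), and to Apoc2 Capza1 (0.946) and Wdr36 (0.945). Mrps16 (0.983) and Copz2 (0.977) were closest to Apoc3, and Ufc1 (0.969) and Stoml2 (0.965) to Apom. The values for genes outside the members are over all 16 libraries, including control replicate 1. That library was the highest for Apoa1, Apoa2, Apoa5, Apoc1, Apoc3, Apoe and Apom. Between Apoc3 and Apom, r was 0.87 over 16 libraries and 0.45 over the 14, and between Apoa1 and Apoa5 it was 0.81 and 0.61.

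Partners of the apolipoproteins were read from 6 lists with 100 genes, 92 of them tested. In TAA against control, the genes that remodel lipoproteins in plasma had 7 of 15 called, all lower, with a median of -0.83, beside 21.0% of all genes called and their median of 0.03. They included Lipc, hepatic lipase (-1.69 ± 0.23, adjusted p = 0.000806, edgeR), and Lmf1, which matures lipases in the endoplasmic reticulum (-1.27 ± 0.15, adjusted p = 0.000361). Other apolipoprotein genes had 9 of 15 tested lower and 0 higher, with a median of -1.14, among them Apol7a (-1.51 ± 0.21) and Apol9b (-1.78 ± 0.30). Of 13 genes of particle assembly and secretion 1 was called, Cideb, a lipid transfer protein of very low density lipoprotein loading (-0.84 ± 0.19), and of 5 genes of Apob mRNA editing 0 were called in edgeR.

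Transcription factors that act on apolipoprotein genes had 1 of 30 higher and 7 lower, among the lower ones Cebpa (-1.12 ± 0.19). Of 14 receptor genes 2 were higher and 2 lower. The 8 of 30 and 4 of 14 called in these lists are near the 21.0% of all genes. Lrp8, an Apoe receptor, was among the higher ones but at 0 and 0.205 CPM in control and only 1.21 and 1.71 CPM in TAA. Without replicate 1 of control and TAA the counts were 8 of 15 for plasma remodelling (1 higher), 5 of 15 for other apolipoproteins, 2 of 13 for assembly, 7 of 30 for transcription factors and 3 of 14 for receptors, beside 15.1% of all genes. Each companion gene named for this comparison kept its call and direction, with Cideb at -0.67, Cebpa at -0.78 and Apol9b at -1.25.

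After 4 weeks of recovery against TAA, Lipc (0.94 ± 0.23) and Gpld1, a phospholipase carried on high density lipoprotein (0.73 ± 0.16), led 4 of 15 remodelling genes that were called, all higher, beside 14.9% of all genes. Saa4, a constitutive apolipoprotein of high density lipoprotein, was the single other apolipoprotein called (2.19 ± 0.36). Mia3, a receptor that loads bulky cargo at the exit sites of the endoplasmic reticulum, was higher (1.02 ± 0.16), and 8 of 30 transcription factors were higher and 2 lower, with Ppara (1.12 ± 0.17) and Thrb (0.93 ± 0.15) at the smallest p. Of 14 receptor genes 2 were higher and 4 lower, among them Lsr, the lipolysis-stimulated receptor, which was lower (-1.26 ± 0.16). These calls are from edgeR with an adjusted p under 0.05, and each gene named kept its call without replicate 1 of control and TAA. The counts were then 7 of 15 for remodelling, 12 of 30 for transcription factors, 8 of 14 for receptors and 3 of 13 for assembly, beside 25.5% of all genes.

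Between weeks 1 and 4, Nr1d1, a nuclear receptor of the transcription factor list that represses genes of the circadian clock, was higher at week 4 (4.37 ± 0.47, adjusted p = 0.000746, edgeR). The plasma lipase inhibitors Angptl4 (1.88 ± 0.36) and Angptl8 (-1.65 ± 0.29) moved in opposite directions over the same weeks. The labels give no hour of tissue collection, and its part in the week differences was not tested.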

How the data were processed

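RNA of 16 whole mouse liver libraries was measured, 2 in each of 8 groups. Per the labels' protocols, total RNA was extracted with TRIzol, depleted of ribosomal RNA and made into libraries with a directional kit. The authors deposited a table of expected counts per gene, not normalised, and a table of TPM. The submitters' processing notes name GRCm38, DESeq2 1.36.0, RSEM 1.3.3 and STAR 2.7.10b without their roles. Annotation release, filters and strand setting: not given in the sources used here. A non-whole value was found in 8.7% of the expected counts. Another 2 columns carried names of no sample in the labels and were left out.

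Expected counts were rounded, filtered with filterByExpr and scaled by TMM. edgeR 4.0.16 (R 4.3.3, limma 3.58.1) fitted the 8 group means to all 16 libraries by quasi-likelihood with robust spread, leaving 8 residual degrees of freedom. Two-sided p-values were Benjamini-Hochberg adjusted over 17292 genes within each of 13 comparisons, and a gene was called at an adjusted p under 0.05. The script was tested on simulated counts. CPM values use the TMM-scaled sizes; errors of log2 changes are standard errors. TPM served for levels between genes and, for TAA against control, for a second reading of overlap. Replicates differed beyond sampling noise (chi-square per degree of freedom 13.4 to 212), so each library counted as 1 sample. Totals of 23.1 to 33.6 Mcounts leave the spread between libraries, not counting error, as the limit. The members and all gene lists were chosen with earlier results of these data known. All 10 members are named in every comparison; from each companion list the called genes with the smallest p are taken, at most 2 per list and comparison, and the text uses part of them; values of some are not reported here. Likeness is the Pearson r of log2(CPM + 1) among named genes with a mean of at least 5 CPM. Alternatives were DESeq2 size factors, scaling by total counts, DESeq2 1.42.0, no filter, fits of only the compared groups, a block for the replicate number, each library left out, and both libraries low in Malat1 left out. Marker lists for hepatocytes, cholangiocytes, macrophages, stellate cells, endothelium, lymphocytes, enterocytes, adipocytes and red cells were read beside the results; summed over each library, lymphocyte markers were at 8.23 to 22.4 CPM, adipocyte markers at 0 to 0.238 CPM and red cell markers at 272 to 882 CPM.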

Additional observations from a re-analysis of the deposited data

How the results depend on the processing

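The number of apolipoprotein genes called at an adjusted p under 0.05 depended on the alternative in 8 of the 13 comparisons, and was 0 throughout for the 4 choline comparisons and the interaction. For TAA against control the count of 8 became 0 when the compared groups were fitted alone, and ran from 5 to 8 as each library was left out. Against TAA at 1 week the count of 1 became 2 without a filter, 0 with the compared groups alone, 2 with DESeq2 and 4 without both libraries low in Malat1 (0 to 4 with each library left out). At 2 weeks the count of 2 became 4 without a filter, 4 with DESeq2 and 6 without both libraries (1 to 7), and at 4 weeks the count of 3 became 7 without both (1 to 7). Against control at 1 week the count of 1 became 2 with total-count scaling, 6 without a filter, 4 with the replicate number as a block, 0 with the groups alone, 7 with DESeq2 and 2 without both libraries (0 to 8). At 2 weeks the count of 0 became 4 without a filter and 3 with DESeq2 (0 to 8), and at 4 weeks the count of 3 became 6 without a filter, 0 with the groups alone, 8 with DESeq2 and 1 without both (0 to 9). For week 4 against week 1 the count of 0 became 1 with total-count scaling, 2 without a filter, 2 with the groups alone, 1 with DESeq2 and 2 without both (0 to 2). Smaller moves came with other settings. For TAA against control the count was 6 with total-count scaling. Against TAA at 2 weeks it was 3 with total-count scaling, the replicate block or the groups alone. Against TAA at 4 weeks it was 2 with total-count scaling or the groups alone. Against control at 4 weeks it was 4 with total-count scaling or the replicate block. The cause of these moves was not tested. Of 2990 values of single members, 2773 kept their side of the threshold, 71 of them uncalled values that changed sign, 98 lost and 118 gained a call, and 1 reversed: Apoc2 at 1 week against control, 0.60 without both libraries against -0.30 (-0.85 to 0.60 over the fits that left out libraries). The labels state no pairing of same-numbered replicates. Their deviations had 28 correlations of -0.26 to 0.51, with a median of 0.06 and 12 of them over 0.1. With the replicate number as a block, 8.58% of all genes were called at 1 week against control, beside 4.26% without it. With 2 libraries a group, depth limits less than replicate number.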
